A study of Mus musculus with 360 samples.

Results

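The 9 genes described here encode proteins that mucosal epithelia secrete or use against microbes and foreign compounds. They are Serping1, Cyp2b10, Lcn2, Fmo2, Ltf, Muc5b, Reg3g, Tff2 and Wfdc18, and they were picked by gene symbol, with their measured levels in these cells already known, from the 48440 rows of the count table. All 9 have a row. The study asked whether 3 transcription factors can turn mature non-sensory cochlear cells into hair cells, and measured RNA in 360 single cells of mouse cochlea as UMIs (unique molecular identifiers, so that each RNA copy is counted once). The 180 control cells came from Fbxo2CreERT2::Rosa26-tdTomato mice, in which tamoxifen switches on a red reporter in cells that use the Fbxo2 promoter. The 180 GAP cells came from Fbxo2CreERT2::Rosa26-tdTomato::Rosa26-GAP mice, whose added allele, per the series title, carries Gfi1, Atoh1 and Pou4f3. All mice had tamoxifen at 3 weeks of age, the cochleae were dissociated with papain at 5 weeks, and cells were sorted on tdTomato and EpCAM into 96-well plates. The titles name each cell by a letter and a well number, with 91 cells of letter A and 89 of letter B (control) and 92 of letter C and 88 of letter D (GAP). Letter and genotype therefore cannot be told apart. No animal is named in the labels. Each genotype was therefore read as 1 sample, its cells are not replicates, and no test between genotypes was made. Because the members were chosen from their values in these same cells, everything below is a description.

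Cochlear supporting cells lie in a closed fluid compartment and are not mucosal. The middle ear next to the cochlea, like the airway, is lined by a mucosa whose secretory cells release mucins, antimicrobial proteins and surfactant-related proteins onto a wet surface. Muc5b is a gel-forming mucin, Tff2 a trefoil peptide packed with mucus, Reg3g a lectin that kills Gram-positive bacteria, Ltf (lactoferrin) binds iron, Lcn2 (lipocalin) binds bacterial iron carriers, and Wfdc18 belongs to a family of small secreted proteins with a whey acidic protein fold. Cyp2b10 and Fmo2 are enzymes that oxidise foreign compounds, and Serping1 is the C1 inhibitor, which restrains complement and contact-system proteases.

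The deposited annotation put 341 of the 360 cells in 9 clusters and left 19 without one. A cell held between 6985 and 60218 UMIs, with a median of 21280 in control cells and 28963 in GAP cells. GAP cells thus held more UMIs than control cells, and letter C had the highest median of the 4 letters, 31683. No 2 cells had identical counts.

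All the members but 1 were found almost wholly in GAP cells, most of them in letter C. Levels over a genotype are given as CPM, the UMIs of a gene summed over the cells of a group, per 1000000 UMIs of those cells, with exact Poisson 95% intervals that cover counting error only. Of 10152 genes that reached 10 CPM in either genotype, 13% stood 2-fold or more above control in GAP cells and 6.61% stood 2-fold or more below (with 1 CPM added to each level). The median log2 difference was 0.10. Of the 9 members, 8 were higher and 1, Wfdc18, was lower. The members were chosen on these levels, so that count is not a finding. Cyp2b10, Lcn2, Fmo2, Ltf, Muc5b, Reg3g and Tff2 had 0 UMIs in all 180 control cells, which by the limit of 3 counts allows a share of up to 1.67% of cells with a UMI. Against a floor of 3 UMIs over the control cells they were at least 125.3-fold higher in GAP for Muc5b (93.9 CPM), 111.1-fold for Reg3g (83.3 CPM), 63.6-fold for Ltf (47.7 CPM) and 61.9-fold for Lcn2 (46.4 CPM). For Cyp2b10 (31.1 CPM), Tff2 (24.6 CPM) and Fmo2 (22.4 CPM) the lower bounds were 41.5, 32.8 and 29.8. Letter C held more than letter D of each of these except Ltf: 20 against 3 cells with a UMI for Cyp2b10, 19 against 2 for Lcn2, 17 against 2 for Fmo2, 47 against 2 for Muc5b, 43 against 8 for Reg3g and 10 against 0 for Tff2. Ltf had 5 cells in letter C and 32 in letter D. Single cells set several of these levels: without the GAP cell with most UMIs of the gene, Muc5b was at 13.5 CPM in GAP, Ltf at 13.9, Reg3g at 24.9, Lcn2 at 28.4 and Tff2 at 1.68 CPM.

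**Figure D1:**
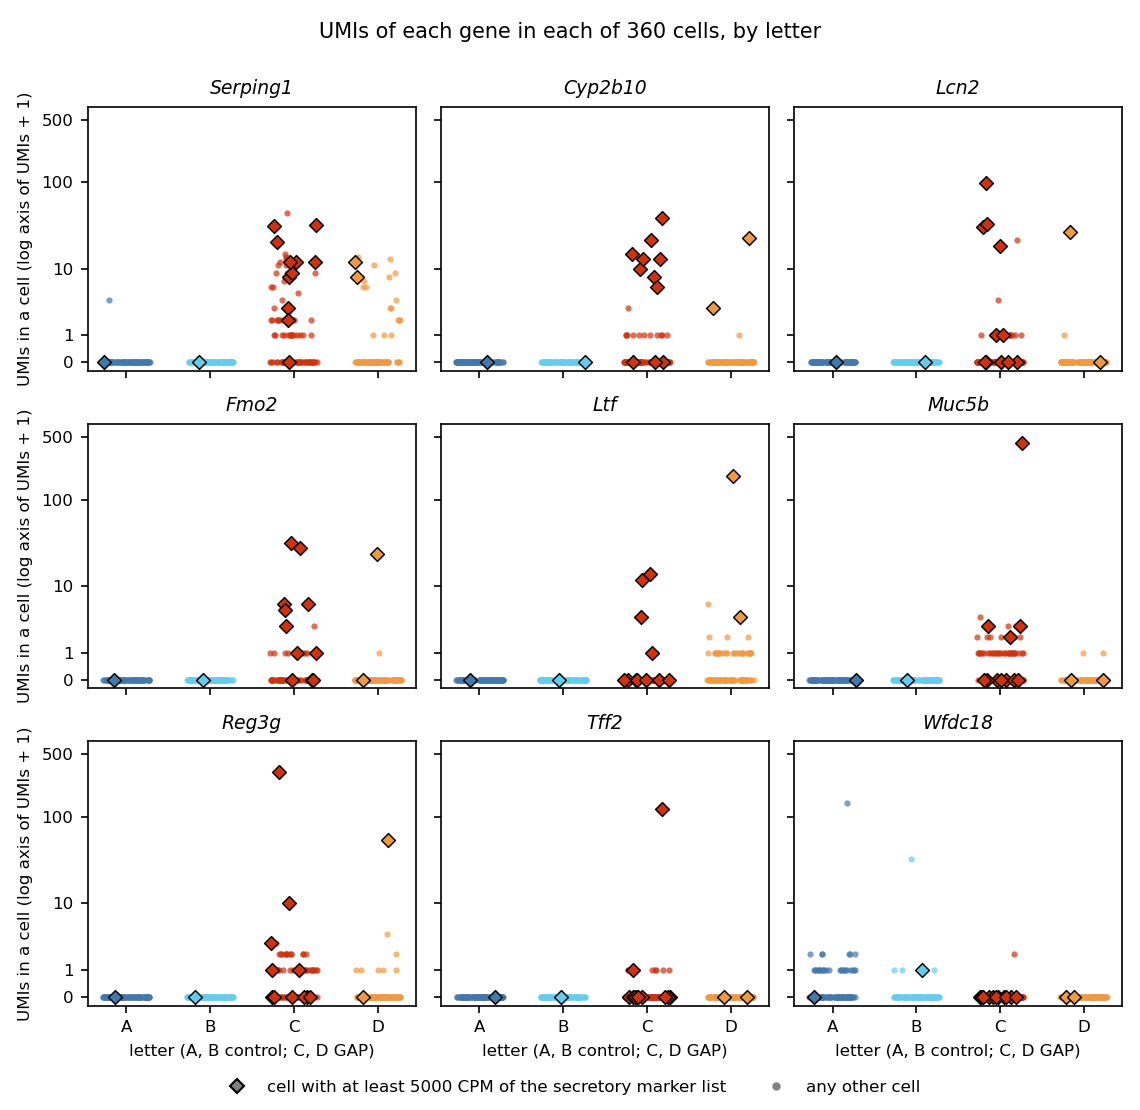
UMIs of each of the 9 members in each of 360 cells (vertical log axis of UMIs + 1, with ticks giving UMIs) by the letter in the cell's title, A and B being control and C and D GAP; diamonds are the 15 cells with at least 5000 CPM of a secretory marker list. Muc5b, Tff2 and Reg3g are led by 1 cell of letter C with 19874, 5659 and 14445 CPM of that cell, Ltf by 1 cell of letter D with 182 UMIs, and Wfdc18 by 1 cell of letter A with 4897 CPM, with most other cells at 0 to 4 UMIs.

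The gene positions are on mm10, from GENCODE M21. Serping1 lies on chr2:84765387-84775444, Cyp2b10 on chr7:25897620-25926624, Lcn2 on chr2:32384633-32388252, Fmo2 on chr1:162874317-162898726 and Ltf on chr9:111019271-111042767. Muc5b lies on chr7:141839070-141873084, Reg3g on chr6:78466269-78468872, Tff2 on chr17:31141049-31144282 and Wfdc18 on chr11:83709015-83711348. All 9 are protein-coding, and UMIs were counted over exons.

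The RefSeq promoter table (GRCm38.p6) held 6 of the 9 members. Promoters are shown for the 4 members with over 20 UMIs in the same GAP cell, the cell of letter D in well 66 (Ltf 182, Reg3g 55, Fmo2 24 and Cyp2b10 23 UMIs), and for Wfdc18, which was held by other cells. Capitals mark matches, on either strand, to the 5 motifs searched: TTGCNNAA (C/EBP), GGGA and CC with 4 bases between them (NF-kB), TGTTTAC (FOXA), TTTC and TTTC with 2 bases between them (ISRE) and CAGCTG (an E-box). Each stretch ends at or before the annotated gene start and reads 5′ to 3′ in the direction of the gene.
Ltf, chr9:111019042-111019270, plus strand: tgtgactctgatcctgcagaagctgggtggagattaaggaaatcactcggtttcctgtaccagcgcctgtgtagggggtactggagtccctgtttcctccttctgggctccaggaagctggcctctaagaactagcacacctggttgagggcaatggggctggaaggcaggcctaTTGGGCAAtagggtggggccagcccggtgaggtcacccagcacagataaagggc
Reg3g, chr6:78468875-78469124, minus strand: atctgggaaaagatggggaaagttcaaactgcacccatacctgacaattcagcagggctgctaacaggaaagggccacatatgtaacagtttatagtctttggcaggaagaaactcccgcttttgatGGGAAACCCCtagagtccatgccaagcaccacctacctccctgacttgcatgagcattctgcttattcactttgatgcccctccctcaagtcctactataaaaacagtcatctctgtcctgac
Fmo2, chr1:162898759-162899008, minus strand: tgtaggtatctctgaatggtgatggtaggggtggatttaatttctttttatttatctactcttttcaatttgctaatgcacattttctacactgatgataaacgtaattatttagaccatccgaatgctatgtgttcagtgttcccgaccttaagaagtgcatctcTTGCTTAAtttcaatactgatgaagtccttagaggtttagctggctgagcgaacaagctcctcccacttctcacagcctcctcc
Cyp2b10, chr7:25897408-25897619, plus strand: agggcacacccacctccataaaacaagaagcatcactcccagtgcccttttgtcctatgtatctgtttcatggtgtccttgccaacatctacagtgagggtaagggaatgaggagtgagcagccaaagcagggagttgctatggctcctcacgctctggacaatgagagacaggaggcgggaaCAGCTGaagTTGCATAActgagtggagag
Wfdc18, chr11:83708754-83709003, plus strand: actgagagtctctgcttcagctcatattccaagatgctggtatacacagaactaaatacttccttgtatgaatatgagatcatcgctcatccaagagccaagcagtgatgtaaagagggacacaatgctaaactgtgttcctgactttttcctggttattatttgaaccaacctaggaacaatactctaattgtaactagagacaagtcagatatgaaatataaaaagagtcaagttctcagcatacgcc
In Cyp2b10 and Ltf the RefSeq start lies past the end of the stretch shown, which stops just before the GENCODE gene start. The C/EBP letters begin 58 bases before the RefSeq start in Cyp2b10, 84 in Fmo2 and 75 in Ltf, and they also occur 216 bases before that of Lcn2. Of all 32851 windows of 250 bases in the table, 9.56% hold these letters. Reg3g holds the NF-kB letters, as do 17.6% of windows, and Cyp2b10 an E-box 67 bases before its start, as do 13%. The ISRE letters are in 2.98% of windows and in none of the 6 promoters. An overlap between motifs was allowed. Wfdc18 holds none of the 5 motifs. A second RefSeq start of Fmo2 has the FOXA letters, found in 3.17% of windows, 28 bases before it. These are matches of letters in a window, not binding sites.

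Most of the members' RNA sat in a small number of cells that carried the RNA of a secretory epithelium. A list of 28 markers of airway and middle ear secretory epithelium, led by Bpifa1 (an antimicrobial surface protein), Cyp2f2 (a cytochrome of airway secretory cells) and Muc4 (a membrane mucin), summed to at least 5000 CPM in 15 cells. The lowest of these had 7761 CPM and the next cell below had 2770 CPM, so no cell lay near the threshold, which was set after the values were seen. Of the 15 cells, 13 were GAP (11 of letter C and 2 of letter D) and 2 were control (1 each of A and B). That is 7.22% of GAP cells (exact Clopper-Pearson 95% interval 3.90 to 12%) and 1.11% of control cells (0.135 to 3.96%), intervals that cover counting error only. In the deposited annotation 13 of the 15, including both control cells, belonged to cluster 5, named Reprogrammed Unknown 1. The other 2 were well 34 of letter C, in cluster 2 (Reprogrammed Hair Cells), and well 91 of letter C, which had no cluster. Below, a cell is called by its letter and well, such as C34.

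The 13 GAP cells carried Bpifa1 at 39 to 734 UMIs each (median 547), Cyp2f2 at 13 to 207 and Foxa1, a transcription factor of endodermal and airway epithelia, at 5 to 54. Muc4 had 864 UMIs in 11 of them and 94 UMIs in 58 of the other GAP cells. Of the 28 secretory markers, 18 reached 10 CPM in the 13 cells or in the other GAP cells, and 17 stood 2-fold or more above in the 13. Among all genes tested between these groups, 16.5% did so. The cells were picked by the sum of this list, so that count was largely set in advance and is not a finding. Scgb1a1, Bpifb1, Foxa2 and Foxa3, which define airway club or secretory cells, had 0 UMIs in all 360 cells. B2m, which nearly every nucleated cell makes, also had 0, so an empty row does not show that a gene was silent.

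Cochlear markers were low in the same cells. The summed level of 13 cochlear epithelium markers was 898 to 2478 CPM in the 13 GAP cells and had a median of 14015 CPM in the other GAP cells, with all 11 of the tested markers at least 2-fold lower. Gjb2, a gap junction protein of supporting cells, had 21 UMIs in the 13 cells and a median of 18 UMIs per cell in the other GAP cells. Fbxo2, whose promoter drives the Cre, had 0 to 4 UMIs per cell against a median of 10. Atoh1, Gfi1 and Pou4f3 together stood at 59.8 to 368 CPM in the 13 cells against a median of 1299 CPM in the other GAP cells. Epcam, one of the sort markers, had UMIs in 12 of the 13 cells, at 293 CPM against 169.2 CPM in the other GAP cells.

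**Figure D2:**
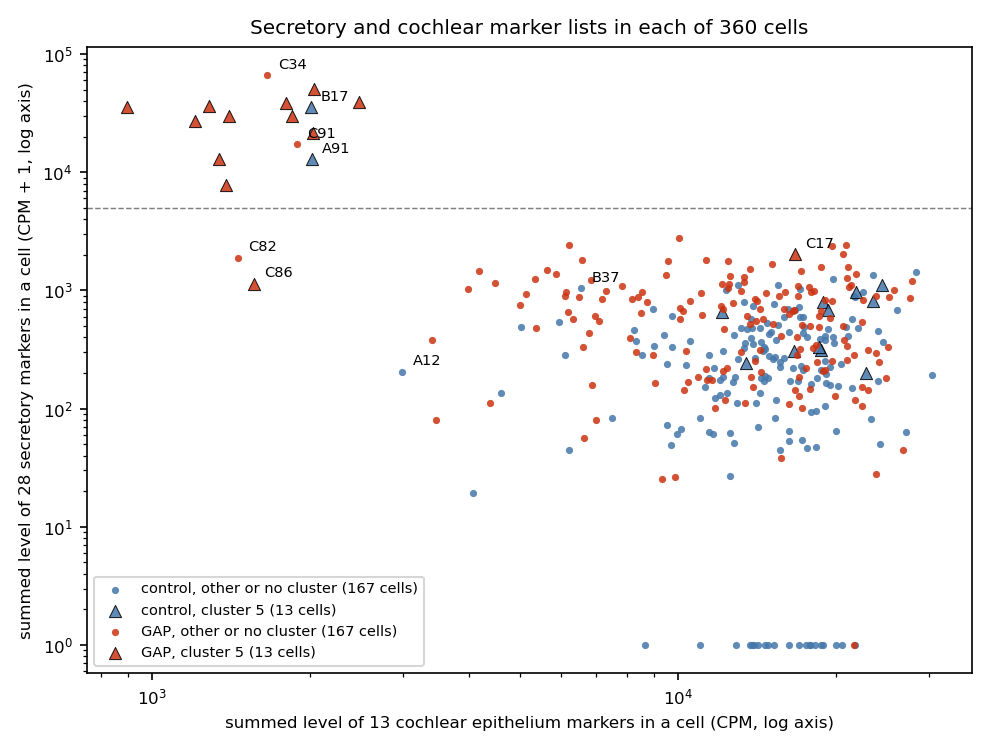
Summed level of the 28 secretory markers (vertical axis, CPM + 1) against that of the 13 cochlear epithelium markers (horizontal axis, CPM), both log axes, in each of 360 cells; colour gives genotype, triangles the deposited cluster 5, and the dashed line 5000 CPM. The 15 cells above the line all have at most 2478 CPM of cochlear markers, and 11 of the 13 control cells of cluster 5 lie with the other control cells.

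Members other than Serping1 and Wfdc18 were concentrated in the 13 GAP cells. These held 91% of all Cyp2b10 UMIs, 84.7% of Lcn2, 88.3% of Fmo2, 84.8% of Ltf, 87.3% of Muc5b, 85.9% of Reg3g and 93.9% of Tff2. They held 33.3% of Serping1 UMIs and none of Wfdc18. Among 10601 genes with at least 10 CPM in the 13 cells or in the other GAP cells, 16.5% were at least 2-fold higher in the 13 and 30.2% lower, with a median log2 difference of −0.30. All 8 members tested were at least 2-fold higher, with a median log2 difference of 6.24. The cells were grouped on a list without the members, but the members helped to bring them to attention, so this too is a description.

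The 13 cells did not share 1 set of members. Muc5b, Tff2 and most Reg3g came from C34 alone, which held 432 UMIs of Muc5b and 314 of Reg3g, or 19874 and 14445 CPM of that cell, and 5659 CPM of Tff2. C34 also held 13 UMIs of Cyp2b10 and 6 of Fmo2, with 0 of Serping1, Lcn2 and Ltf. Among its other genes were Itln1, Pglyrp1, Lypd2, Muc5ac and Scgb3a2, with 70, 61, 95, 26 and 23 UMIs. Bpifa1, Muc16, Wfdc2 and Cyp2f2, which other secretory-list cells also held, had 663, 232, 92 and 84 UMIs in C34. Muc5ac is the second gel-forming mucin of airways, Scgb3a2 a secretoglobin, and Pglyrp1 and Itln1 bind bacterial cell walls and sugars. The deposited annotation named C34 a reprogrammed hair cell, yet it had the highest secretory list of all 360 cells, 65832 CPM, with 1656 CPM of cochlear markers and 2 UMIs of Atoh1, 1 of Gfi1 and 2 of Pou4f3.

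Ltf came mainly from D66, which held 182 of its 256 UMIs, along with 55 of Reg3g, 24 of Fmo2, 23 of Cyp2b10 and 8 of Serping1. Ltf was next highest in C49 with 14 UMIs and in C25 with 12, and 8 of the 13 cells had at most 1 UMI, so its level in the group rests on D66. Among the 13 cells, Lcn2 was highest in C91 with 98 UMIs, followed by C27 with 34, C20 with 31, D69 with 27 and C25 with 19. Of the 13, 6 had 0 and 2 had 1. C91 also held 32 UMIs of Serping1 and 22 of Cyp2b10. Among the 13 cells, 5 thus had Lcn2 far above the others, and C34 was not one of them. Outside the 13, C82 of cluster 1 held 22 UMIs of Lcn2, more than C25. It had 1887 CPM of the secretory list and 1454 CPM of cochlear markers. A list of macrophage and other leukocyte markers summed to 561 CPM in C20, 552.6 CPM in D69 and 212 CPM in C91. It summed to 0 CPM in C27, C25 and the other 8 GAP secretory-list cells. Few genes made up these sums. In C91 it was Csf1r alone, with 10 UMIs. In C20 it was Csf1r with 11 UMIs and Ptprc with 2, and in D69 Csf1r with 9 and Cd74 with 13. Of the 12 listed markers, 5 had 0 UMIs in every cell of the series and so say nothing here. The part of Csf1r, Ptprc and Cd74 in the Lcn2 level was not tested.

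The oxidising enzymes were more evenly spread. Cyp2b10 had 39 UMIs in C29, 23 in D66, 22 in C91, 15 in C95, 13 in C34 and C20, 10 in C33, 8 in C25, 6 in C50 and 3 in D69, with 0 in C27, C44 and C49. Fmo2 had 32 UMIs in C50, 28 in C95, 24 in D66, 6 in C34 and C29, 5 in C49, 3 in C33 and 1 in C25 and C44. The cells with most Lcn2 (C91, C27, C20 and D69) had 0 Fmo2. C25 was the only cell of the 360 with UMIs of 7 members, and none had 8.

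**Figure D3:**
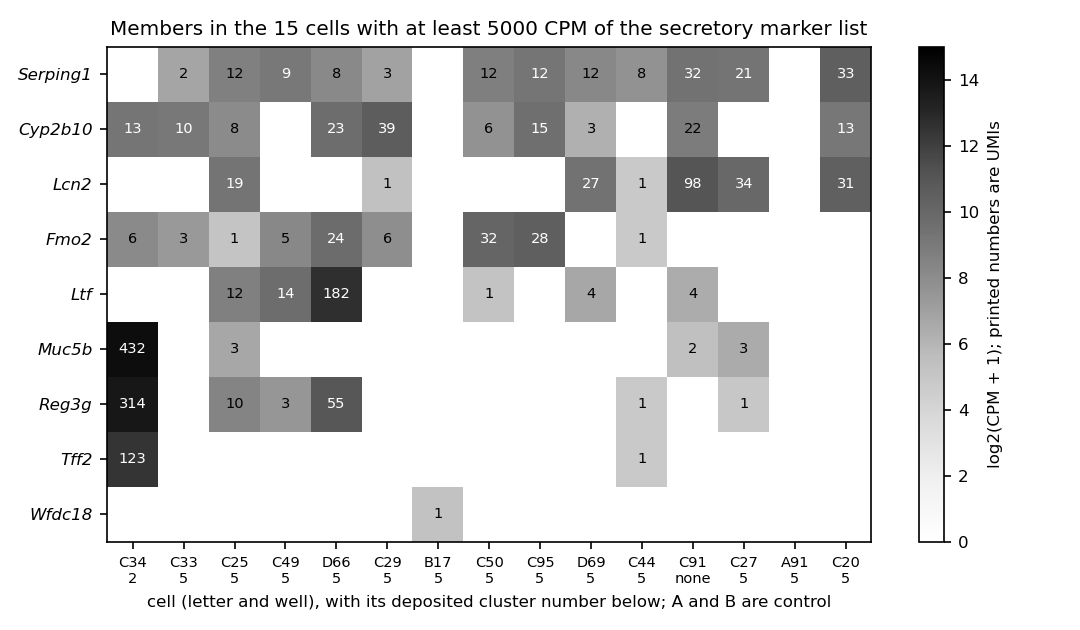
UMIs of the 9 members (rows; printed numbers) in the 15 cells with at least 5000 CPM of the secretory marker list (columns, in falling order of that list, with the deposited cluster number under each cell), shaded by log2(CPM + 1). Serping1 and Cyp2b10 fill most GAP columns, Muc5b and Tff2 are high in C34 alone, and the control columns A91 and B17 hold 1 UMI, of Wfdc18.

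The 2 control cells with the secretory list held almost none of the members. B17 had 646 UMIs of Bpifa1, and A91 had 18 of Bpifa1 and 75 of Cyp2f2. Their secretory lists summed to 35549 and 12893 CPM, within the range of the GAP cells, and their cochlear lists to 2002 and 2012 CPM. Together they held 0 UMIs of 8 members and 1 of Wfdc18, at depths of 26977 and 13418 UMIs. For Cyp2b10, which was at 409 CPM in the 13 GAP cells, the 0 UMIs in the 2 control cells allow up to 74.3 CPM by the limit of 3 counts. The NF-kB target Icam1 was at 805 CPM in the GAP cells and 891 CPM in the 2 control cells, and Muc4 at 2326 and 0 CPM. Of 12 basal and squamous markers, all 7 tested were at least 2-fold higher in the 13 GAP cells than in the other GAP cells, led by Krt4, a keratin of wet stratified epithelia, at 404 against 2.40 CPM in 11 of 13 cells. The list summed to 46 to 2461 CPM in the GAP cells, 371 CPM in B17 and 10806 CPM in A91. A91 had 21 UMIs of Krt5 and 9 of Trp63, which define basal cells and were at 0 in the 13 GAP cells. With 2 control cells of 2 letters, whether the members differ by genotype within such cells cannot be told apart from variation between cells.

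Cluster 5 gave the same cells another grouping. It held 13 control and 13 GAP cells, 11 of the GAP cells in letter C and 2 in D. Of the 13 GAP cells, 11 were secretory-list cells. C17 had 16662 CPM of cochlear markers and 1 UMI each of Serping1, Fmo2 and Reg3g, and C86 had 1140 CPM of secretory and 1560 CPM of cochlear markers. Of the 13 control cells, 11 had 12103 to 24408 CPM of cochlear markers and at most 1118 CPM of secretory markers, and only A91 and B17 were secretory-list cells. The clustering may have used these genes, so its contrast is a description. Against the other GAP cells, 16.1% of 10524 genes were at least 2-fold higher and 28.8% lower, and 6 of 8 members were higher and 2 lower. Fmo2 was at 288 and 3.79 CPM (75.9-fold, 95% interval 46.2 to 131.3), Ltf at 606 and 8.57 CPM (70.7-fold, 50.8 to 100.6) and Cyp2b10 at 333 and 9.97 CPM (33.4-fold, 23.8 to 47.5). Lcn2 was 11.9-fold, Serping1 5.33-fold and Reg3g 2.74-fold higher. Single cells moved 3 of these: Ltf was at 95.9 against 8.57 CPM without D66, Lcn2 at 322 against 7.65 CPM without C91, and Reg3g at 205 against 12.2 CPM without C34, which lies outside the cluster.

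The lower members in cluster 5 were Muc5b, at 19.9 against 99.1 CPM, and Tff2, at 5.69 against 25.9 CPM. C34 decided both of these directions: without it Muc5b was at 19.9 CPM in the cluster and 13 CPM outside, and Tff2 at 5.69 and 1.40 CPM. Within letter C alone, Reg3g turned lower in cluster 5, at 60 against 137.5 CPM. The cells of letter C outside the cluster include C34, which held 314 UMIs of Reg3g, and the other 91 cells of the letter held 67 in all. Against the 13 control cells of cluster 5, 24.4% of 10098 genes were at least 2-fold higher in the GAP cells of the cluster and 26% lower, and all 7 members tested were higher. Those control cells held 0 UMIs of 8 members and 3 UMIs of Wfdc18.

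Outside the leading cells several members left a faint trace that followed the letter. Muc5b had UMIs in 46 of the 91 other cells of letter C, 70 UMIs in all, or 16.2 for every 100 in C34 (95% counting interval 12.6 to 20.5). No other cell of letter C had more than 4. Letter D had 2 UMIs of Muc5b in 88 cells, and letters A and B had 0 in 180. Ltf, led by D66, showed the reverse letter: 31 of the 87 other cells of letter D had 42 UMIs in all, 23.1 for every 100 in D66 (16.6 to 31.2), while 5 of 92 cells of letter C had a UMI.

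Reg3g had UMIs in 42 other cells of letter C (67 UMIs, 21.3 per 100 of C34) and in 7 other cells of letter D (11 UMIs, 20 per 100 of D66). Tff2 had 1 UMI in each of 9 other cells of letter C, 7.32 per 100 of C34, and 0 in letters A, B and D. Wfdc18 followed the same form in control cells. A12 held 4897 CPM of it and 27 of the 90 other cells of letter A held 33 UMIs, 22.9 per 100 of A12 (15.8 to 32.2), with at most 2 in a cell. B37 held 33 UMIs, and 6 of the 88 other cells of letter B held 1 each, 18.2 per 100 (6.67 to 39.6). The trace was not even across members. Per 100 UMIs in the secretory-list cells of letter D, its other cells had 3.85 of Cyp2b10, 3.70 of Lcn2 and 4.17 of Fmo2. Each of these was 1 UMI. In letter C the same values were 11.1, 20.1 and 15.9. The Lcn2 value there rests largely on C82, which held 22 of the 37 UMIs in those other cells.

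Bpifa1, which is not a member, had low counts outside the rich cells in every letter, and their size did not follow the order of the rich cells throughout. In letter C, 11 secretory-list cells had 4998 UMIs and each of the 81 other cells had between 6 and 91, with a median of 23. In letter D, 2 such cells had 1339 UMIs and the other 86 cells a median of 3. In letter B, B17 with 646 UMIs stood beside 88 cells with a median of 4 and a highest value of 10. In letter A, whose only such cell had 18 UMIs of Bpifa1, the other 90 cells had a median of 0 and 7 UMIs in all. For every 100 UMIs in the rich cells, the other cells of the same letter had 24 in D, 38.9 in A, 40.2 in C and 54 in B, so letter D, with more Bpifa1 in its rich cells than letter B, had less outside them.

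A rule applied to the whole table, chosen after the values were seen, gave the same form for other genes. Of 12 genes with at least 50 UMIs in 1 cell and at most 4 in every other, which include Muc5b and Tff2, 11 had more of their other UMIs in the letter of that cell than in the other 3 letters together. The 12 genes had 253 other UMIs within the letter and 33 outside it, with a median of 14.6 per 100 UMIs of the top cell. They are not 12 separate cases, since several share a top cell. C34 led Muc5b, Tff2, Itln1 and Pglyrp1, A38 led Foxn1, Gm12185 and Adgb, and C92 led Hbb-bs and Hba-a1. With up to 9 UMIs allowed in every other cell, 13 of 16 genes had this form. Those 16 had 352 other UMIs within the letter and 181 outside it. Hbb-bs, a globin of red blood cells, had 284 UMIs in C92 and 75 in 41 other cells of letter C. Ifitm1 was the exception, with 50 UMIs in D66, 1 elsewhere in letter D and 16 in other letters. Whether these UMIs came from carry-over between wells was not tested.

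Neighbouring wells were read for the same trace. The labels do not give the plate layout, so wells 1, 8 and 12 apart in number were read. Over 16 pairs of a member and a letter with a top cell of at least 10 UMIs, 29% of 31 wells 1 apart held a UMI of the member, as did 26.7% of wells 8 apart and 17.9% of wells 12 apart. Over all other wells of the same letters the share was 21% (from 1.15 to 56% by pair). Both shares take in secretory-list cells. Among the wells 1 apart these were C49, with 5 UMIs of Fmo2 next to C50, and C50, with 1 of Ltf next to C49. D65 and C35 were each counted for more than 1 member. C33 next to C34 had 0 UMIs of Muc5b, Reg3g and Tff2, and C35 had 1 of Muc5b and 1 of Tff2. D65, next to D66, was the clearest neighbour, with 6 UMIs of Ltf, 4 of Reg3g and 27 of Bpifa1, each the highest among the 86 cells of letter D outside the secretory-list cells. D67, on the other side, had 0 of Ltf and Reg3g.

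**Figure D4:**
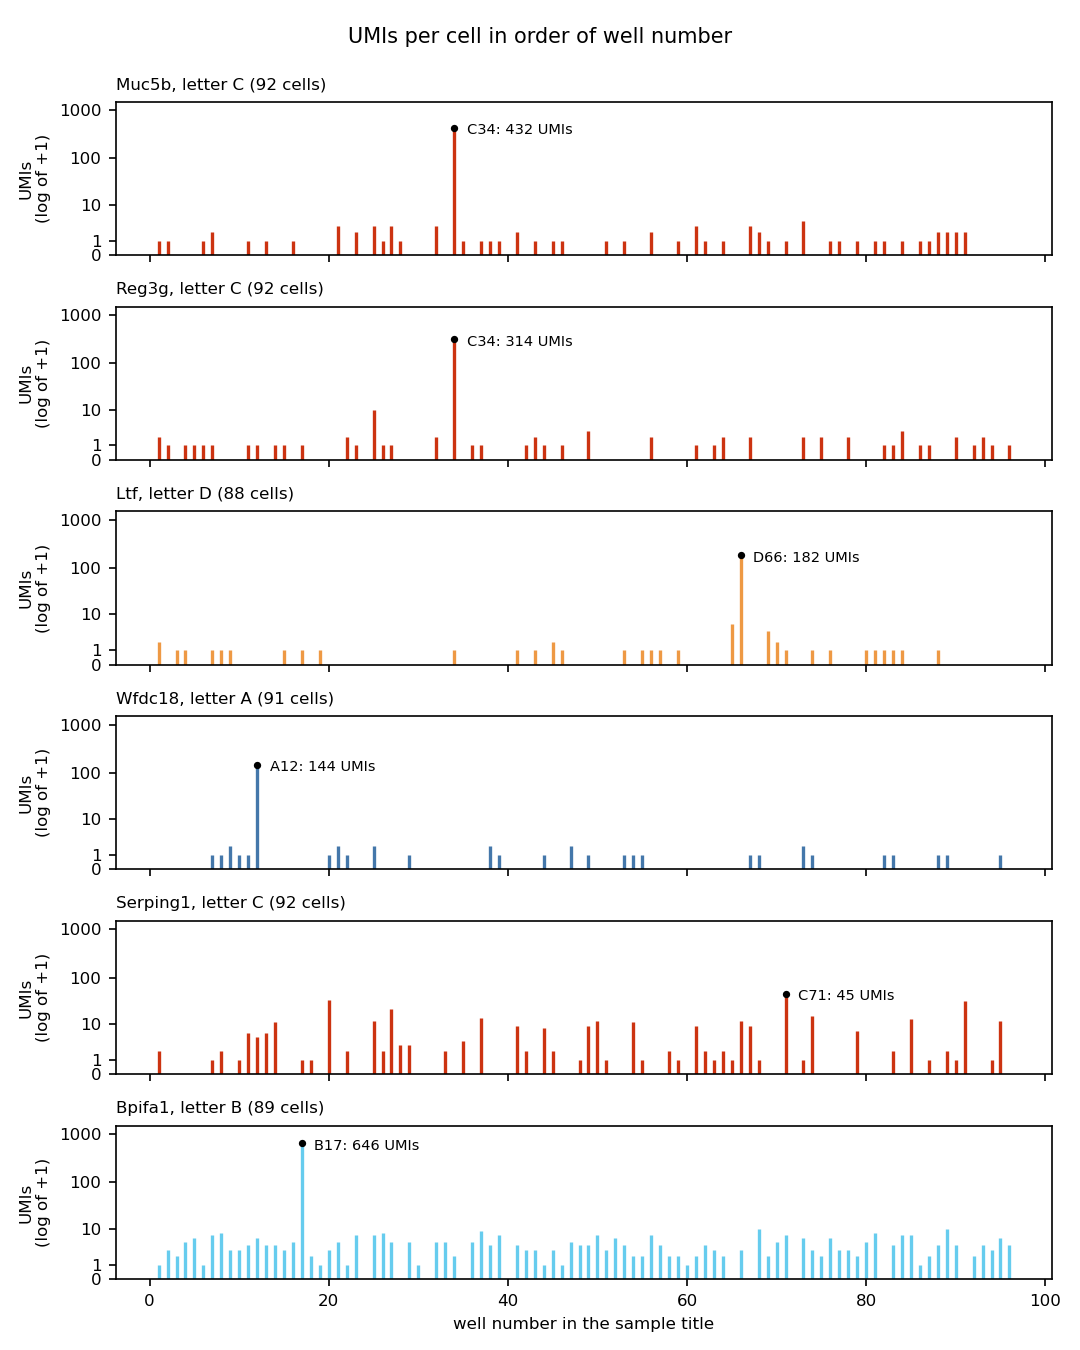
UMIs of a gene in each cell of 1 letter (vertical log axis of UMIs + 1, with ticks giving UMIs) in order of the well number in the title. Around C34, D66, A12 and B17 the remaining wells stay at 0 to 10 UMIs across the whole letter, whereas Serping1 in letter C reaches 45 UMIs in C71 with many wells above 10.

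Counts of cells with several members have to be read beside that trace. A UMI of at least 3 members was found in 42 cells, 38 of letter C and 4 of letter D, and in no control cell. All 13 GAP secretory-list cells were among them. The other 29 had a median depth of 38684 UMIs, against 27840 in the other GAP cells with fewer members. With at least 3 UMIs asked of each member, 11 cells held 3 or more members, and all 11 were GAP secretory-list cells. When each cell was thinned to 8000 UMIs, leaving out 3 control cells, 12 cells held at least 3 members. Muc5b and Reg3g shared 24 cells at 1 UMI, 49% of the Muc5b cells and 47.1% of the Reg3g cells. Both were common in letter C, where 46 of the 91 cells other than C34 had a UMI of Muc5b and 42 had one of Reg3g. Whether they shared more cells than those rates give was not tested. Muc5b and Ltf, led by cells of different letters, shared 3. Wfdc18 shared 1 cell with Serping1 (A38, a control cell) and 1 with Reg3g.

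Serping1 differed from the other members. It had 489 UMIs in 73 of the 180 GAP cells and 4 UMIs in 1 control cell, or 91.1 CPM against 1.0 CPM (91.2-fold, 95% interval 35.4 to 336). Of its GAP UMIs, 325 lay in 61 cells outside the 13 secretory-list cells. Without the secretory-list cells it was at 65.1 CPM in GAP against 1.01 CPM. Muc5b and Reg3g then stood at 12.8 and 12.6 CPM in GAP, and the 5 other members high in GAP fell under 10 CPM, so that 3 of the 8 kept at least 2-fold with the filter applied.

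By cluster, Serping1 was highest in the GAP cells of cluster 5, where 12 of 13 cells had a UMI and the level was 379 CPM. Cluster 1 (Reprogammed Sup Cells 1, as the annotation spells it) followed with 33 of 54 GAP cells and 130 CPM. GAP cells without a cluster were at 85.4 CPM, cluster 7 (Reprogrammed Supp Cells 2) at 84.8 CPM in 5 of 20 cells, cluster 2 at 13.8 CPM in 10 of 51 and cluster 8 at 12.3 CPM in 2 of 10. The 15 GAP cells of clusters 0, 3, 4 and 6, which carry names of wild-type cells, had 0 UMIs. The order of the leading levels was thus cluster 5, then 1, then 7, with counting intervals alone as error. That order rests on the secretory-list cells: without them cluster 5 was at 20.6 CPM (1 UMI in 2 cells) and the cells without a cluster at 51.3 CPM, below clusters 1 and 7, which hold no such cell.

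In cluster 1 Serping1 was found in cells with cochlear RNA, and so were the cells of that cluster without it. Its top cell of all, C71 with 45 UMIs, had 11114 CPM of cochlear markers, 10246 CPM of the hair cell list and 620 CPM of the secretory list. The 33 cells of cluster 1 with a Serping1 UMI had a median of 1054 CPM of Atoh1 and 14531 CPM of cochlear markers, and the 21 without had 1143 and 13796 CPM. Their hair cell lists had medians of 6420 and 7043 CPM. The secretory list was higher with a Serping1 UMI, at 701 against 258 CPM, as it was in cluster 2 (910.5 against 381 CPM) and cluster 7 (820.1 against 410.3 CPM). Within a letter that difference in cluster 1 was not seen: the medians were 888 against 1045 CPM in letter C (21 and 7 cells) and 189 against 194 CPM in letter D (12 and 14 cells). Clusters 2 and 7 were not split by letter, so their differences cannot be told apart from letter. Outside the secretory-list cells Serping1 had 42 of 81 cells of letter C with a UMI and 19 of 86 of letter D, with highest values of 45 and 14. Unlike Muc5b, it had no single leading cell in either letter: 21 of the 91 cells of letter C other than C71 had at least 5 UMIs.

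**Figure D5:**
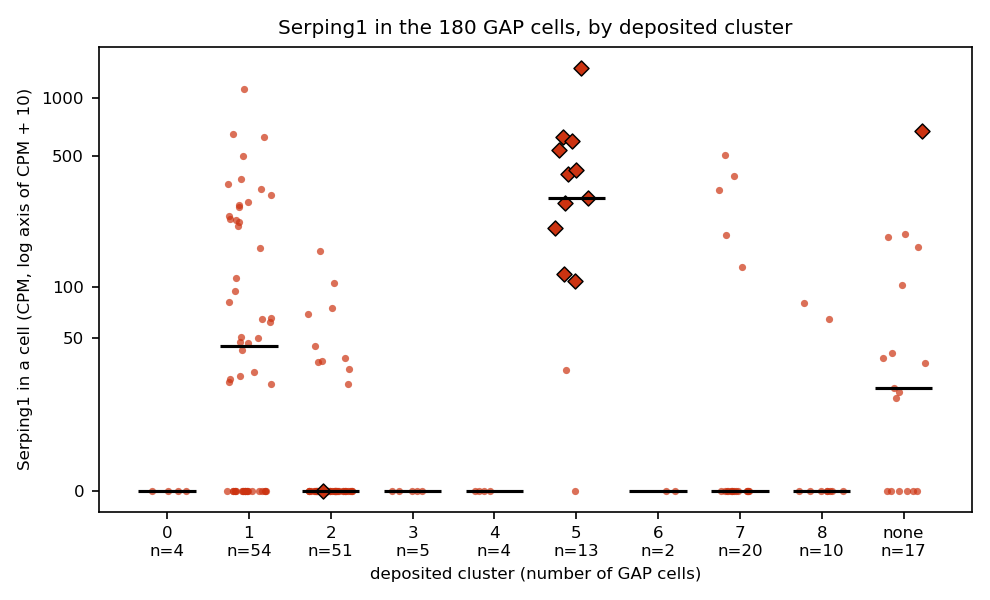
Serping1 in each of the 180 GAP cells (vertical log axis of CPM + 10, with ticks giving CPM) by deposited cluster, with the number of GAP cells under each; diamonds are secretory-list cells and bars the median of a cluster. Cluster 5 and cluster 1 have medians above 0, at 301 and 44.5 CPM, and clusters 0, 3, 4 and 6 hold no UMI.

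Wfdc18 was the only member higher in control, with 216 UMIs in 35 control cells against 2 UMIs in 1 GAP cell (C05), or 54 and 0.373 CPM (144.85-fold, 95% interval 39.6 to 1204). Without A12 and C05, the top cell of each genotype, it was at 18.1 CPM in control cells and 0 in GAP cells. A12 and B37, its leading cells, both belonged to cluster 8 (Reprogrammed Unknown 2) although both were control cells. They did not reach the secretory-list threshold, with 204 and 1042 CPM of the list, against medians of 128.3 and 369.9 CPM in their letters. Their cochlear lists were low, at 2993 and 6536 CPM against letter medians of 14614 and 15898 CPM. Bmp3, a secreted growth factor of the BMP family, had 38 and 40 UMIs in them, and Esrrb, a nuclear receptor, 38 and 53. Wfdc18 was at 0 UMIs in all 13 GAP secretory-list cells.

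Other defence and metabolic genes were read from marker lists in the 13 GAP cells against the other GAP cells, beside 16.5% of all tested genes higher and 30.2% lower. Of the other antimicrobial and acute phase genes, all 6 tested of 20 listed were at least 2-fold higher, among them Lbp, which binds bacterial lipopolysaccharide, at 1225 against 26.4 CPM, and Wfdc2 at 824 against 71.3 CPM. Lbp and Wfdc2 had UMIs in all 13 cells, so they were more evenly held than Ltf or Reg3g. Of the xenobiotic metabolism genes 11 of 15 tested were higher and 1 lower, with the oxidase Aox3 at 388 against 4.0 CPM and Cyp4b1 at 177.7 against 0.801 CPM. Cyp2f2, which is among the 11, and Aldh1a1 are also on the secretory list by which the cells were picked. Of the complement genes 5 of 7 were higher and 1 lower, with C3, the central complement component that Serping1 acts upstream of, at 385 against 2.60 CPM.

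NF-kB and IL-17 response genes were higher for 10 of 14 tested and lower for none, led by Icam1 at 805 against 4.40 CPM. The interferon list was mixed, with 4 of 14 higher and 3 lower. Ltf, Lcn2 and Pglyrp1 are also made by neutrophils. Of 12 neutrophil markers, 7 had 0 UMIs in all 360 cells and so say nothing here, and the other 5 (S100a8, S100a9, Ngp, Camp and Mpo) had 0 UMIs in the 13 cells and 1 to 10 UMIs in the other GAP cells together. Multiciliated markers summed to at most 59.8 CPM in each of the 13 cells and salivary and serous gland markers to at most 71.2 CPM, with 3 of 13 and 6 of 11 of these markers at 0 in all 360 cells.

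Across the 360 cells, the genes whose log2(CPM + 1) was most like that of a member, by Pearson correlation among genes with a UMI in at least 5 cells, fell into different sets. Cyp2b10 was most like Serpinb6b (r = 0.66), Foxa1 (0.62) and Dmrt2 (0.62), and Fmo2 most like Aox3 (0.64), Pax1 (0.62) and Anxa3 (0.62). Lcn2 was most like Kcne2 (0.61), Pros1 (0.59) and the surfactant protein gene Sftpd (0.54), which also led for Ltf (0.43). Muc5b was most like Reg3g (0.45), then Ccnd1 (0.45), Whrn (0.43), Ptprq (0.42) and Muc4 (0.42). Without C34, Reg3g fell to 0.38 for Muc5b, below Ccnd1 (0.50), Whrn (0.44) and Ptprq (0.42). Reg3g was most like Muc4 (0.52), then Muc5b, with Hbb-bs the fourth (0.41). Tff2 was most like Muc5ac (0.53), a value that fell to 0.14 without C34. Serping1 was most like Heg1 (0.54), Ccer2 (0.50) and Kcnh6 (0.49), with Pou4f3 the fourth (0.48), and Wfdc18 most like Mef2c (0.43). These values share libraries, letters, genotype and depth, and most members have counts in few cells. Serping1 had 4 UMIs and Pou4f3 0 in the control cells, so their likeness takes in the difference between genotypes.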

How the data were processed

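Exon UMI counts per gene and cell, and a cluster number and name per cell, were used as the authors deposited them. The deposited counts were made with STAR and HTSeq on mm10, per the submitters' processing notes; their versions and settings: not given in the sources used here. Cells were prepared by SMART-MATQ, per the labels' protocols. From the counts, pooled CPM with exact Poisson 95% intervals, ratios with exact conditional binomial intervals and Clopper-Pearson shares were computed (Python 3.11.15, numpy 2.4.6, pandas 2.3.3, scipy 1.17.1). Genes needed 10 CPM in either group, 1 CPM was added before log2, and a floor of 3 UMIs stood for a count of 0. Each genotype is 1 sample, so no p-value was computed. Members, marker lists and rules were chosen with earlier results of these data known, and the 5000 CPM threshold after seeing its values. The genes named are the members, some of the 5 genes most like each, and genes with most UMIs from each marker list. Defining markers at 0 are also named. Genes named for single cells, Aox3, Cyp4b1, Wfdc2, Hbb-bs, Ifitm1 and other list genes outside that rule were chosen after their values were seen. Gene IDs were matched to GENCODE M21 without version (48058 of 48440). Scripts were tested on simulated data. Alternatives included the trimmed mean of M values (edgeR 4.0.16, R 4.3.3).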

Additional observations from a re-analysis of the deposited data

How the results depend on the processing

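With 8 members at least 2-fold higher in GAP, 3 of 4 tested remained so at a filter of 50 CPM, since fewer genes were tested, and 3 of 4 without the cells rich in secretory markers, an alternative chosen after seeing the data. The 2 members lower in cluster 5 became 0 within letter D, where neither reached 10 CPM and so neither could be called, and 0 without the GAP cell with most UMIs of the member. On the log2 scale, Reg3g in cluster 5 reversed to −1.18 within letter C (from 1.44), where C34, outside the cluster, held 314 UMIs. Without the GAP cell with most UMIs of the member, Muc5b reversed to 0.58 (from −2.26) and Tff2 to 1.48 (from −2.01), so 1 cell set the direction of both. The 42 cells with several members became 80 with at least 2 members, 19 with at least 4, 11 with at least 3 UMIs of each and 12 when thinned to 8000 UMIs. Of the 45 most like genes, 23 were shared with Spearman correlation and 29 without the top cell; the cause was not tested. The other 41 counts and shares that sum up a comparison stayed within their limits. Values of single members moved more often: of the log2 differences between genotypes 20.9% moved by over 1, mostly with a pseudocount of 10 CPM (9), without the cells rich in secretory markers (7), and without letter C or the top cell (5 each). Of 41 log2 values for cluster 5, 10 moved, 6 of them within letter D, and of 81 shares of cells 37 left their interval, 12 when 3 UMIs were asked for, 16 when 10 were and 9 when thinned. The trimmed mean of M values moved the median of all genes from 0.10 to 0.03. Letter C is needed for Muc5b, which without it was at 0.821 CPM in GAP cells. No paired analysis was possible because each genotype is 1 sample and replicate numbers only name cells. In the 2 control secretory-list cells, 0 UMIs allow up to 74.3 CPM of a member.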
